A study of Mus musculus with 32 samples.

Results

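The 26S proteasome genes were read as the probes of the array table that carry exactly 1 gene symbol beginning with Psma, Psmb, Psmc, Psmd, Psme, Psmf or Psmg and a digit. The rule found 56 probes for 50 genes, out of 19938 symbols that a probe names alone. Of these genes, 8 encode subunits of the core alpha ring, 7 of the core beta ring, 4 the exchangeable beta subunits of the immunoproteasome and thymoproteasome, 9 the base of the regulatory cap and 8 its lid. A further 7 encode assembly chaperones, and 5 encode activators of the core or its inhibitor. Both remaining symbols, Psmc3ip and Psme3ip1, only share the prefix: Psmc3ip (also called Hop2) acts in meiotic recombination, and Psme3ip1 encodes a protein that binds Psme3. The label therefore held for 48 of the 50 genes, taken to include the chaperones and activators. Psma3 had 3 probes, while Psma5, Psmb3, Psmc1 and Psmd2 had more than 1 each, and the probe with the highest mean signal stood for the gene. A probe that names both Psme2b and Psme2 was left out by the rule.

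The proteasome is the barrel-shaped protease that degrades proteins tagged with ubiquitin. Its core has outer rings of alpha subunits, which gate the entrance, and inner rings of beta subunits, of which Psmb5, Psmb6 and Psmb7 carry the catalytic sites. The cap binds, unfolds and feeds substrates through a base with a ring of ATPases (Psmc1 to Psmc6) and a lid that removes ubiquitin. In immune cells, and in other cells exposed to interferon, Psmb8, Psmb9 and Psmb10 replace the catalytic subunits and the PA28 activator of Psme1 and Psme2 docks on the core, which changes the peptides offered on class I molecules. Germ cells are known for a different variant, with Psma8 in place of Psma7 and the PA200 activator Psme4, that is needed for male meiosis.

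RNA came from EGFP-positive fetal germ cells, sorted by FACS at 17.5 dpc (days post coitum) from fetuses that carried the OG2 transgene, in which the Oct4 promoter drives EGFP. G0 dams were dosed from 12.5 dpc with oil (the vehicle), BPA (bisphenol A) at 0.2, DEHP (a phthalate) at 750 or VZ (vinclozolin, an antiandrogen) at 100 mg per kg per day. G1R germ cells are those of the directly exposed fetuses (FVBxOG2), taken as prospermatogonia from males and as oocytes from females. G2R germ cells are prospermatogonia of the next generation (OG2xFVB) in the oil, DEHP and VZ lines, which was not dosed itself. Each of the 11 groups had 3 arrays except the DEHP-treated G1R females, with 2, which gave 32 arrays (21 male and 11 female). The labels do not say whether arrays came from separate litters, so that p-values measure the spread between these samples.

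The sorted cells carried germ cell RNA in both sexes. Among oil controls, Ddx4 averaged 11.62 in prospermatogonia and 11.59 in oocytes on the log2 scale, and Mael 13.15 in both. Of the 5 germ cell markers, 1 was higher and 2 were lower in oil oocytes, beside 28.7% and 25.6% of all probes. Their list mean was 10.33 to 10.54 in oil oocyte arrays and 11.22 to 11.31 in oil prospermatogonia arrays. Dnmt3l was at 11.81 in prospermatogonia and 6.09 in oocytes, while Lhx8 was at 7.25 and 11.26, in the order their labels call for. The same order held for 3 of 4 prospermatogonia markers and 4 of 5 fetal oocyte markers, while Nanos2 did not pass (6.29 and 6.38) and Stra8, an early meiotic gene of the oocyte list, was lower in oocytes (5.58 and 5.20). Pou5f1, whose promoter drives the sorted EGFP, was at 10.83 in prospermatogonia and 7.65 in oocytes. Marker lists of other gonadal cells were also higher in the male sort. All 8 endothelial markers were lower in oil oocytes, with a list mean of 6.62 to 6.73 against 7.87 to 7.98 in oil prospermatogonia. The 10 leukocyte markers, of which 5 were lower and 6 were dim (mean signal under 6.7), ranged from 6.33 to 6.47 against 6.81 to 6.87. Of the defining leukocyte genes, Ptprc was at 6.18 against 6.36 and Csf1r at 5.84 against 5.96, and neither passed the test. Lower in oil oocytes were also 5 of 6 peritubular and interstitial, 2 of 5 Sertoli, 2 of 4 fetal Leydig, 1 of 4 granulosa and 2 of 3 red blood cell markers, with none higher. In such bulk samples, fewer cells of a kind and less RNA per cell cannot be told apart.

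Promoter sequence was read for the genes on which the account below turns, from RefSeq (GRCm38.p6), which listed a promoter for 42 of the 50 genes. Psmd10 and Psme1 had the most positive and the most negative sex difference of the 50 genes. Psmc6 and Psmd12 both hold the core of the antioxidant response element, through which the Nfe2l factors are known to raise proteasome genes, and lay on opposite sides of the sex comparison. Each line gives bases that end just before the annotated gene start, 5′ to 3′ on the gene's strand. Capitals mark CCAAT boxes and the GC box in Psmd10 (chrX:140956712-140956961, minus strand), the GC box in Psme1 (chr14:55578244-55578493, plus strand), and the antioxidant response element core in Psmc6 (chr14:45329574-45329822, plus strand) and Psmd12 (chr11:107479278-107479527, plus strand), read on either strand.
Psmd10: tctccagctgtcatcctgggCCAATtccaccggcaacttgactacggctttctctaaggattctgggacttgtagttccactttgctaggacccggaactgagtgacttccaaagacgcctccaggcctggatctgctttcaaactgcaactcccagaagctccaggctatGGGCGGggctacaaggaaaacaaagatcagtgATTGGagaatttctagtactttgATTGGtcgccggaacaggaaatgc
Psme1: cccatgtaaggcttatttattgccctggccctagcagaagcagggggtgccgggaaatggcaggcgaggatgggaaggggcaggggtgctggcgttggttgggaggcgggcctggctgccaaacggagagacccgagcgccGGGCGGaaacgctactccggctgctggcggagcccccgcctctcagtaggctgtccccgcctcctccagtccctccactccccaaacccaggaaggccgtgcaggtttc
Psmc6: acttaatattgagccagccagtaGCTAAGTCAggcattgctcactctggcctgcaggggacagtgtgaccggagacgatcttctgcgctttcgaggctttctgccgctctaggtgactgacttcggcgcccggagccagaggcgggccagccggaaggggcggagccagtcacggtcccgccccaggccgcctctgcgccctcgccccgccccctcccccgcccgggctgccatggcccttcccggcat
Psmd12: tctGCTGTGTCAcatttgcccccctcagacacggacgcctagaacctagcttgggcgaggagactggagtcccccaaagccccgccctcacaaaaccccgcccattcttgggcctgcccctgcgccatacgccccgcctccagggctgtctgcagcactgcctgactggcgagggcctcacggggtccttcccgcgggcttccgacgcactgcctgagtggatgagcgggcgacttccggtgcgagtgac

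The first comparison asked how far female and male germ cells of the same fetal age differ in these genes without an ED. Of the 50 genes, 18 were higher and 12 lower in oil oocytes than in oil prospermatogonia (adjusted p under 0.05, limma over all 35556 probes). The corresponding shares, 36% higher and 24% lower, stand beside 28.7% and 25.6% of all probes. The differences did not run one way within the complex. The alpha ring, the lid and the chaperones held 13 of the 18 higher genes, while the 12 lower genes were spread over the beta ring (3), the exchangeable subunits (2), the cap base (2), the lid (2), the activators (2) and the symbols that encode no subunit (1). Taken by part, 5 of 15 core ring genes were higher and 3 lower (median 0.18), against 7 higher and 4 lower of 17 cap genes (median 0.02) and 1 higher and 2 lower of 5 activator and inhibitor genes (median -0.04). The median log2 difference was 0.16 over the 50 genes and 0.05 over all probes.

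**Figure D1:**
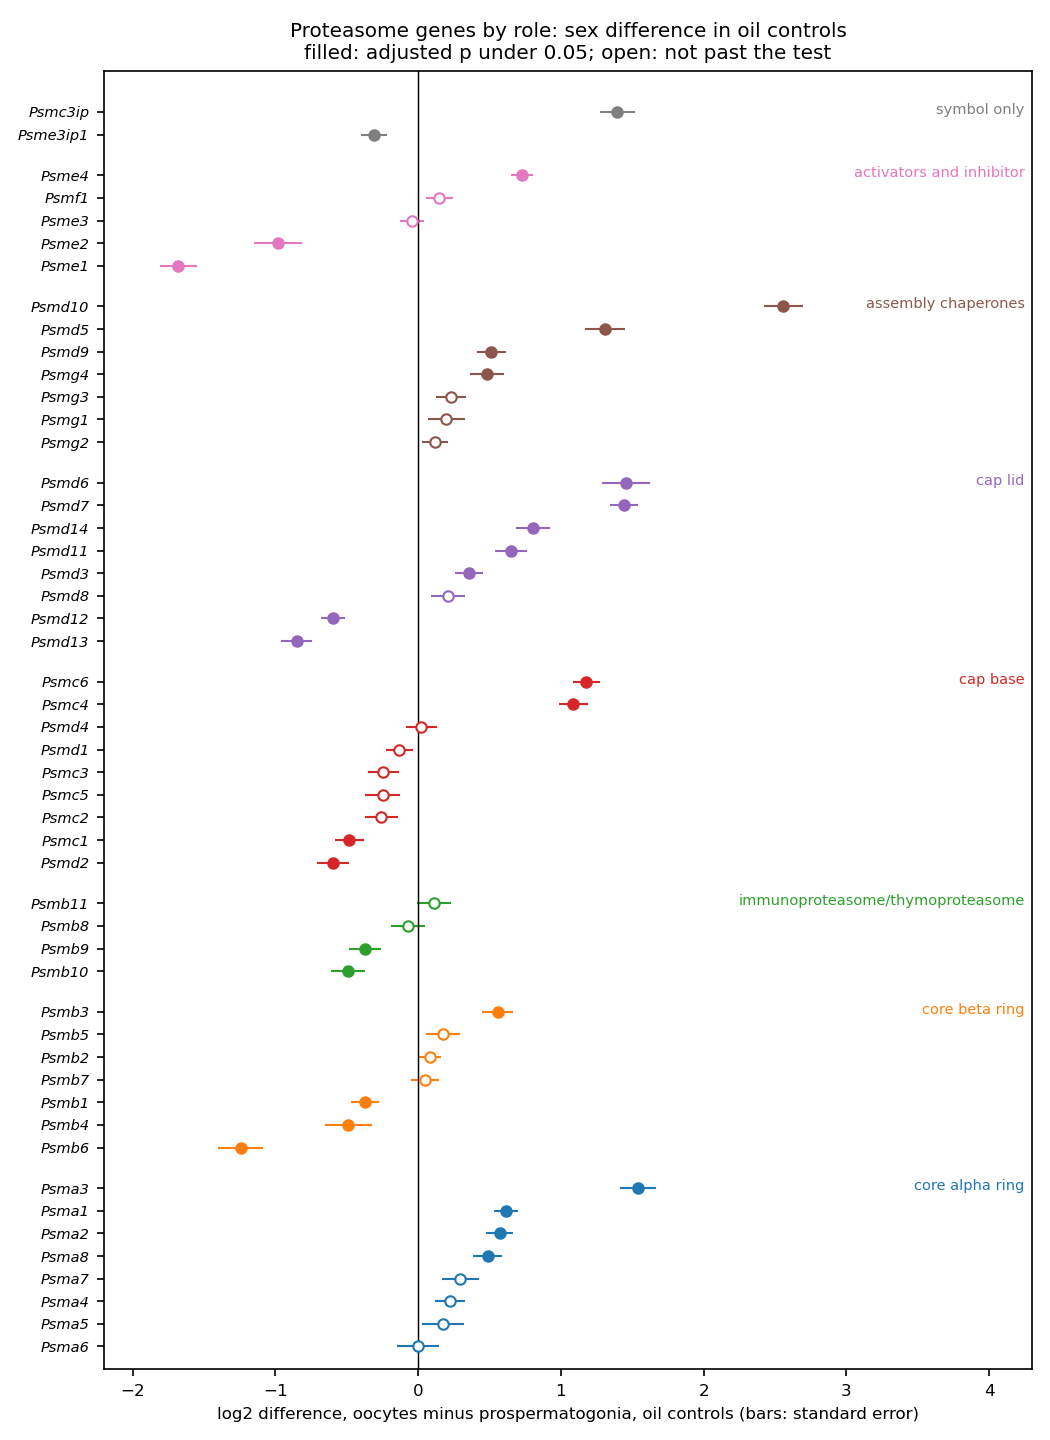
Log2 difference between oocytes and prospermatogonia of oil controls (x axis) for each of the 50 genes, grouped by role, with the standard error as bars; filled points passed the test (adjusted p under 0.05) and open points did not. The chaperone Psmd10 lies furthest right at 2.56 and the activator subunit Psme1 furthest left at -1.68.

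In the core alpha ring, 4 of 8 genes were higher in oocytes, none was lower, and the median difference was 0.39. Psma3, a structural subunit of the ring, measured 10.83, 10.19 and 10.49 in the oil oocyte arrays against 9.02, 8.93 and 8.95 in the oil prospermatogonia. The groups lay apart, by 1.54 ± 0.12 (SE) or 2.91-fold (adjusted p = 5.71e-11), and the other Psma3 probes gave 1.56 and 1.59. Psma1 (0.62) and Psma2 (0.57) also passed. The germline subunit Psma8 measured 8.67, 8.52 and 8.66 in oocytes and 8.05, 8.15 and 8.19 in prospermatogonia. It was higher by 0.49 ± 0.10 (adjusted p = 0.000191), with no overlap. Its somatic counterpart Psma7 differed by 0.30 ± 0.13 and missed the threshold (adjusted p = 0.0593). Psma6 gave 0.00, with a 95% interval of -0.30 to 0.30.

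The core beta ring was divided. Psmb6, the subunit with the caspase-like site, measured 10.54, 10.33 and 10.30 in oil oocytes and 11.49, 11.85 and 11.56 in oil prospermatogonia. Every oocyte array was below every prospermatogonia array, and the difference was -1.24 ± 0.16 (2.37-fold, adjusted p = 2.1e-07). Psmb4 (-0.49) and Psmb1 (-0.37), both non-catalytic, were lower as well, and Psmb3 (0.56), also non-catalytic, was higher. The remaining catalytic genes did not pass: Psmb5, with the chymotrypsin-like site, differed by 0.18 (95% interval -0.07 to 0.42) and Psmb7, with the trypsin-like site, by 0.05 (-0.16 to 0.25). The group median was 0.05, and it changed sign, to -0.13, when arrays were scaled by cyclic loess.

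Of the exchangeable subunits, Psmb10 and Psmb9 were lower in oil oocytes. Psmb10, the inducible counterpart of Psmb7, measured 7.58, 7.79 and 7.85 in oocytes against 8.21, 8.31 and 8.16 in prospermatogonia (-0.49 ± 0.12, adjusted p = 0.00111). Psmb9, the counterpart of Psmb6, measured 7.82, 7.84 and 7.91 against 8.25, 8.20 and 8.23 (-0.37 ± 0.11, adjusted p = 0.00717). The arrays of the sexes did not overlap for either gene. Psmb8, the counterpart of Psmb5, ranged from 6.06 to 6.52 in oocytes and from 6.23 to 6.54 in prospermatogonia, and the thymoproteasome gene Psmb11 from 6.52 to 6.72 and from 6.43 to 6.63. Both overlapped and did not pass (-0.07 and 0.11), and both were dim, where intensity tells little about the transcript. Psmb9 and Psmb8 lie 10865 bases apart on chromosome 17.

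In the cap base, 2 genes were higher, 2 lower and 5 not past the test, with a median of -0.24 (-0.48 under cyclic loess). Higher were the ATPase genes Psmc6 and Psmc4. Psmc6 measured 10.70, 10.58 and 10.65 in oil oocytes against 9.37, 9.50 and 9.51 in prospermatogonia, a separation of 1.18 ± 0.09 (adjusted p = 4.91e-11), and Psmc4 differed by 1.09 ± 0.10. Psmd2, a scaffold of the base, and Psmc1, another ATPase, were lower (-0.59 and -0.48, both also by their second probe). The ATPases Psmc2 (-0.26), Psmc3 (-0.24) and Psmc5 (-0.25) had negative values that missed the threshold.

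The cap lid had 5 higher and 2 lower genes of 8, and a median of 0.50 (0.27 under cyclic loess). Psmd7 and Psmd6, both structural subunits, had the largest differences. Psmd7 measured 10.35, 10.22 and 10.36 in oil oocytes and 8.92, 9.00 and 8.68 in prospermatogonia (1.44 ± 0.10, adjusted p = 2.59e-12). Psmd6 measured 10.53, 9.95 and 10.25 against 8.74, 9.07 and 8.55 (1.46 ± 0.17). Psmd14, the deubiquitinase of the lid, was higher by 0.80, Psmd11 by 0.65 and Psmd3 by 0.35. In contrast, Psmd13 measured 10.19, 10.00 and 9.94 against 10.70, 11.11 and 10.87 and was lower by 0.85 on the log2 scale (SE 0.11, adjusted p = 2.76e-07), and Psmd12 differed by -0.60 ± 0.09. Neither gene's arrays overlapped between the sexes.

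Among assembly chaperones 4 of 7 were higher in oocytes and none lower, and the genes that chaperone the base led. Psmd10 (gankyrin), which holds the ATPase Psmc4 during assembly, measured 11.25, 11.05 and 11.14 in oil oocytes and 8.46, 8.81 and 8.49 in oil prospermatogonia. This was the largest absolute difference of the 50 genes, at 2.56 ± 0.13 or 5.89-fold (adjusted p = 1.46e-14), and over all arrays the 11 female values (11.02 to 11.31) lay above the 21 male values (8.18 to 9.00). Psmd10 is the only one of the 50 genes that lies on chromosome X. There, the 790 single-gene probes had a median female minus male difference of 0.14 in oil controls, against -0.01 for the 20905 on other chromosomes. The value of Psmd10 was reached by 2.53% of the chromosome X probes and by 0.459% of the others. Psmd5, a chaperone of the ATPase Psmc2, differed by 1.31 ± 0.14, and Psmd9, the third chaperone of the base, by 0.51 ± 0.10. Of the chaperones that pair into the alpha ring scaffold, Psmg4 was higher (0.48 ± 0.12, adjusted p = 0.00131; 0.22 and past no threshold under cyclic loess), whereas Psmg1 (0.20), Psmg2 (0.12) and Psmg3 (0.23, adjusted p = 0.0712) did not pass.

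The activators moved apart from each other. Psme1, the alpha subunit of PA28, measured 7.82, 8.09 and 8.10 in oil oocytes and 9.55, 9.72 and 9.78 in oil prospermatogonia (-1.68 ± 0.13, 3.2-fold, adjusted p = 2.28e-11). Psme2, its partner, which lies 5913 bases away on chromosome 14, measured 7.22, 7.39 and 7.54 against 8.20, 8.52 and 8.38 (-0.98 ± 0.17, adjusted p = 1.56e-05). For each gene, every oil oocyte array lay below every oil prospermatogonia array. Psme4, the PA200 activator, ran the other way, with 10.97, 10.90 and 10.88 in oocytes and 10.21, 10.21 and 10.15 in prospermatogonia (0.73 ± 0.08, adjusted p = 5.46e-09). Psme3, the nuclear PA28 gamma, differed by -0.04 (95% interval -0.22 to 0.13) and the inhibitor Psmf1 by 0.15 (-0.05 to 0.35). Of 5 class I genes, 3 were lower in oil oocytes. B2m, the light chain of class I, differed by -2.04 ± 0.14, and Tap1 and Tapbp were lower (-0.30 and -0.23). Tap2 and Erap1 did not pass (-0.18 and -0.05). With BPA 3 of the 5 were lower, but with DEHP and with VZ only 1 each (list medians -0.07 and -0.08). Leukocytes and endothelium are known to express PA28 and class I genes; the levels of their markers in these arrays are given above, and their part in the difference was not tested.

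The symbols that encode no subunit differed too. Psmc3ip measured 8.95, 8.94 and 9.09 in oil oocytes against 7.50, 7.62 and 7.67 (1.39 ± 0.12, adjusted p = 3.17e-10), and Psme3ip1 differed by -0.31 ± 0.09 (adjusted p = 0.00676). Psmc3ip encodes a meiotic protein in cells that are in meiosis in females only at this age. The part of meiosis in its difference was not tested.

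The same comparison in ED-treated germ cells gave 22 higher and 9 lower genes with BPA, 23 and 7 with DEHP, and 20 and 9 with VZ. Background shares were 30.6% and 25.1% of all probes with BPA, 28.5% and 23.6% with DEHP, and 31% and 24.5% with VZ. The 4 sex comparisons rest on separate arrays. In all 4, 17 genes were higher and 7 lower (Psmb6, Psmb10, Psmd2, Psmd12, Psmd13, Psme1 and Psme2), 13 passed in none and 13 in some, and none was called in opposite directions. The share of all probes called in all 4 was not counted, so these counts were not shown to be particular to the members. The split depended on scaling: cyclic loess gave 19 higher and 14 lower with BPA, 21 and 11 with DEHP and 18 and 16 with VZ, against 17 and 16 in oil. By role, the lid gave 5 higher and 2 lower genes in each of the 4 comparisons, the alpha ring 4 to 6 higher and 0 lower, and the chaperones 4 to 6 higher and 0 lower. Psma7, which missed the threshold in oil, passed with BPA (0.37), DEHP (0.55) and VZ (0.42), and its germline counterpart Psma8 with BPA (0.42) and VZ (0.50) but not DEHP (0.11, adjusted p = 0.455, limma). Psmb5 passed with BPA (0.29), narrowly missed the threshold with DEHP (0.31, adjusted p = 0.0528, limma) and did not pass with VZ (0.18). Psmb9 passed with none of the EDs (-0.21, -0.09 and -0.26). Psmg3 passed with BPA (0.47), DEHP (0.31) and VZ (0.50). Psmd10 kept a difference of 2.31 to 2.56 and Psme1 of -1.77 to -1.58 over the treatments. Psmb6 gave -1.24 in oil, -1.26 with BPA, -0.77 with DEHP and -0.90 with VZ. Psme2 gave -0.98, -1.06, -0.47 and -0.53 in that order, and with DEHP the sexes overlapped (7.76 and 7.28 in oocytes against 8.19, 8.22 and 7.56). That call (adjusted p = 0.0379, limma) was lost without the second DEHP-treated oocyte array, where the difference was -0.23, and without the first or second DEHP-treated prospermatogonia array (-0.37 and -0.35). With VZ it was lost without the third oocyte array (adjusted p = 0.0655).

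**Figure D2:**
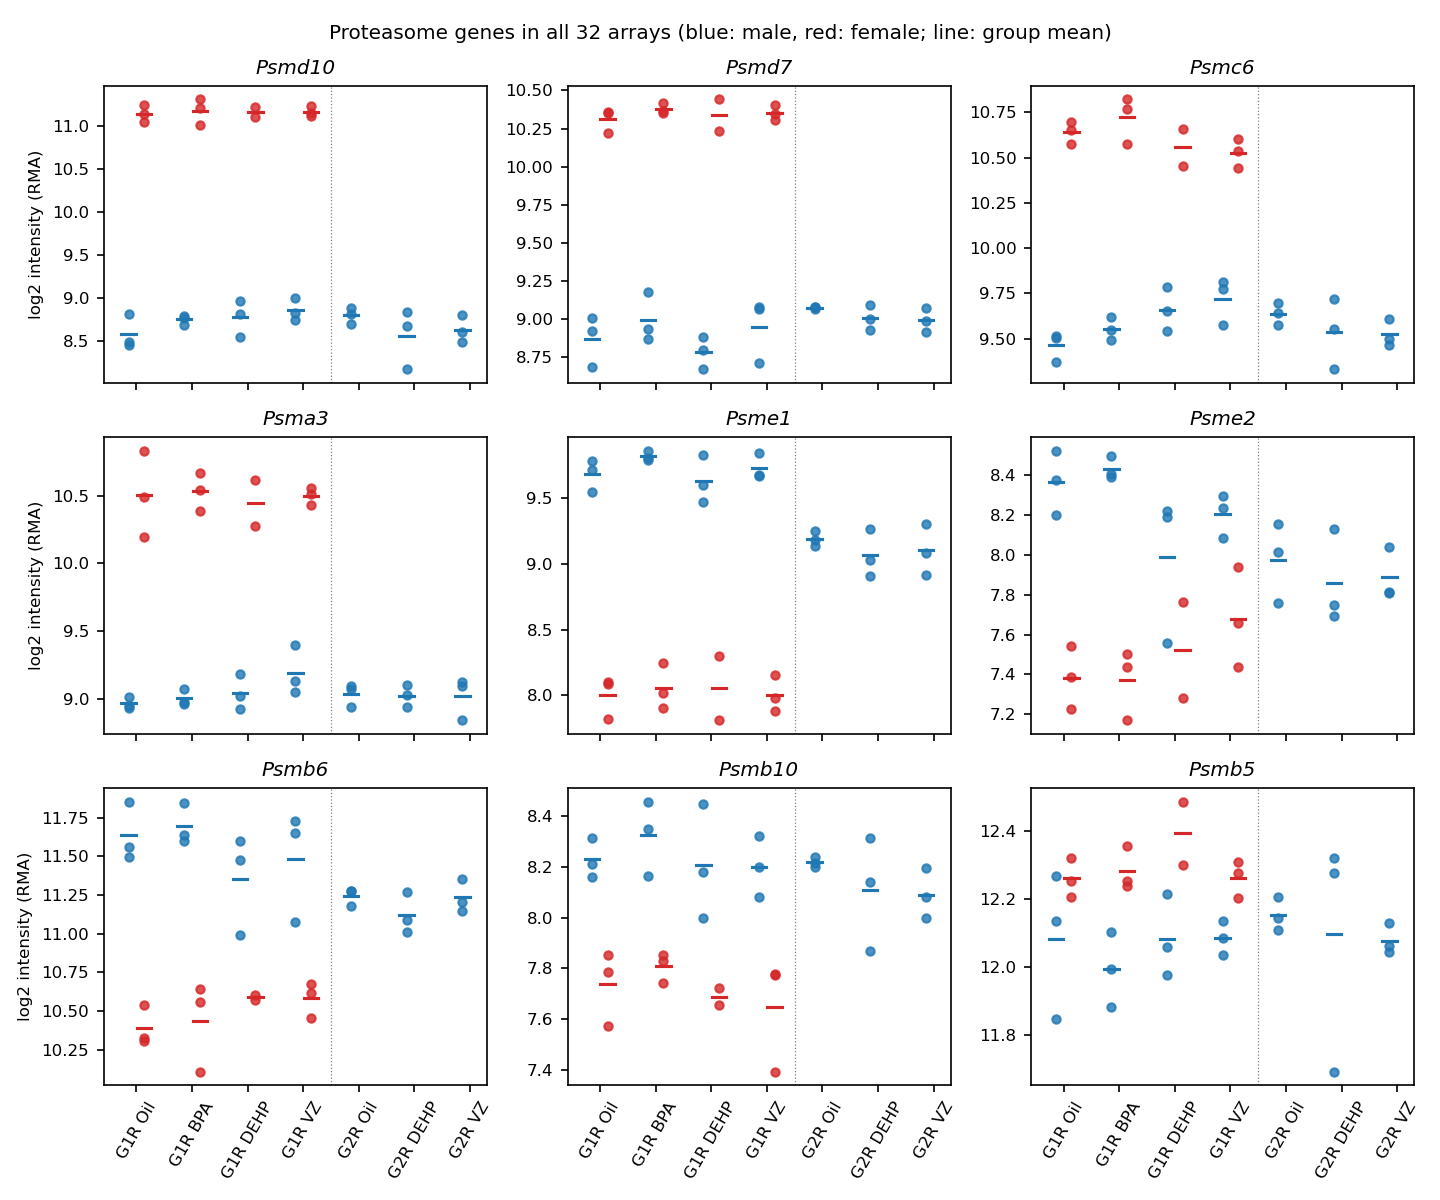
Log2 RMA intensity (y axis) of 9 proteasome genes in each of the 32 arrays by group (x axis), males in blue and females in red, with a line at each group mean. Female arrays of Psmd10, Psmd7, Psmc6 and Psma3 lie above all male arrays and those of Psme1, Psmb6 and Psmb10 below them, while the sexes overlap in Psme2 and Psmb5; G2R arrays of Psme1 (8.91 to 9.31) lie below the G1R male arrays (9.47 to 9.86).

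Whether the size of the sex difference depended on the ED was tested as an interaction. No member passed for BPA, DEHP or VZ, nor did any other probe (0% of all probes in each). At an unadjusted p under 0.05 there were 3, 6 and 3 members, beside 4.84%, 7.47% and 6.21% of all probes. The smallest p with DEHP belonged to the ATPase gene Psmc5 (0.52 ± 0.18, adjusted p = 0.536), with VZ to Psmc6 (-0.37 ± 0.13, adjusted p = 0.797) and with BPA to Psmb11 (-0.36 ± 0.17, adjusted p = 1). Widest open was Psme2 with DEHP, whose 95% interval reached 1.03.

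The central comparison of the study set ED against oil within sex and generation. No proteasome gene passed in any of the 8 comparisons, by limma or by the ordinary linear model without moderation. Background shares were 0% of all probes in BPA-, DEHP- and VZ-treated females, in BPA-treated males and in G2R males of the DEHP and VZ lines, and 0.00562% in DEHP- and in VZ-treated G1R males. The largest member values in either direction were 0.35 (Psmg1, DEHP-treated oocytes) and -0.38 (Psme2, DEHP-treated prospermatogonia), and the 95% intervals of all 50 genes stayed within 1 log2 unit of 0 in each of the 8 comparisons, with a median SE of 0.11 or 0.12. No interval reached a 2-fold ED effect, and the outermost bounds over the 8 comparisons were -0.72 and 0.66. The 95% level holds for each interval alone, not for all of them together.

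In exposed oocytes, 0, 1 and 2 members had an unadjusted p under 0.05 for BPA, DEHP and VZ, beside 4.56%, 6.28% and 5.96% of all probes. Nearest were Psmg3 (0.16 ± 0.11), Psma2 (0.12) and Psma4 (0.12) with BPA, Psmg1 (0.35 ± 0.15, adjusted p = 0.76 by limma), Psmd1 (0.21) and Psmd13 (0.24) with DEHP, and Psmd2 (0.23 ± 0.11), Psmg1 (0.27) and Psmd13 (0.22) with VZ. All of these missed the threshold. Psmd13 was one of the genes lower in oocytes than in prospermatogonia, and the comparisons share their oil arrays.

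In exposed prospermatogonia, 2, 6 and 5 of the 50 members had an unadjusted p under 0.05 for BPA, DEHP and VZ, beside 6.96%, 14.4% and 18.3% of all probes. On counts this small, the members were not shown to differ from the array. With DEHP, Psma8 measured 8.46, 8.52 and 8.39 against 8.05, 8.15 and 8.19 in oil. The difference of 0.32 ± 0.10 missed the threshold (adjusted p = 0.155, limma). Psmb9 measured 7.76, 7.83 and 8.02 with DEHP, 7.93, 8.04 and 7.93 with BPA and 7.86, 7.96 and 8.17 with VZ. In oil it measured 8.25, 8.20 and 8.23. Its differences were -0.36, -0.26 and -0.23, with adjusted p of 0.16, 0.653 and 0.276, and they share the same oil arrays. Psmc5 gave -0.35 ± 0.12 with DEHP (adjusted p = 0.196). With BPA the other nearest genes were Psmb11 (0.26) and Psma1 (-0.17). With VZ, Psmc6 (0.26 ± 0.09, adjusted p = 0.159, limma), Psme4 (0.20 ± 0.08) and Psmg2 (0.23 ± 0.09) missed the threshold likewise.

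In G2R prospermatogonia, 1 member had an unadjusted p under 0.05 in the DEHP line and none in the VZ line, beside 6.91% and 5.41% of all probes. Psme3 measured 11.24, 11.27 and 10.93 in the DEHP line against 11.46, 11.33 and 11.30 in the oil line (-0.22 ± 0.09, adjusted p = 0.678). In the VZ line the nearest were Psma4 (-0.21), Psmb11 (-0.24) and Psme3 (-0.17), all with an adjusted p of 0.924 or more.

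**Figure D3:**
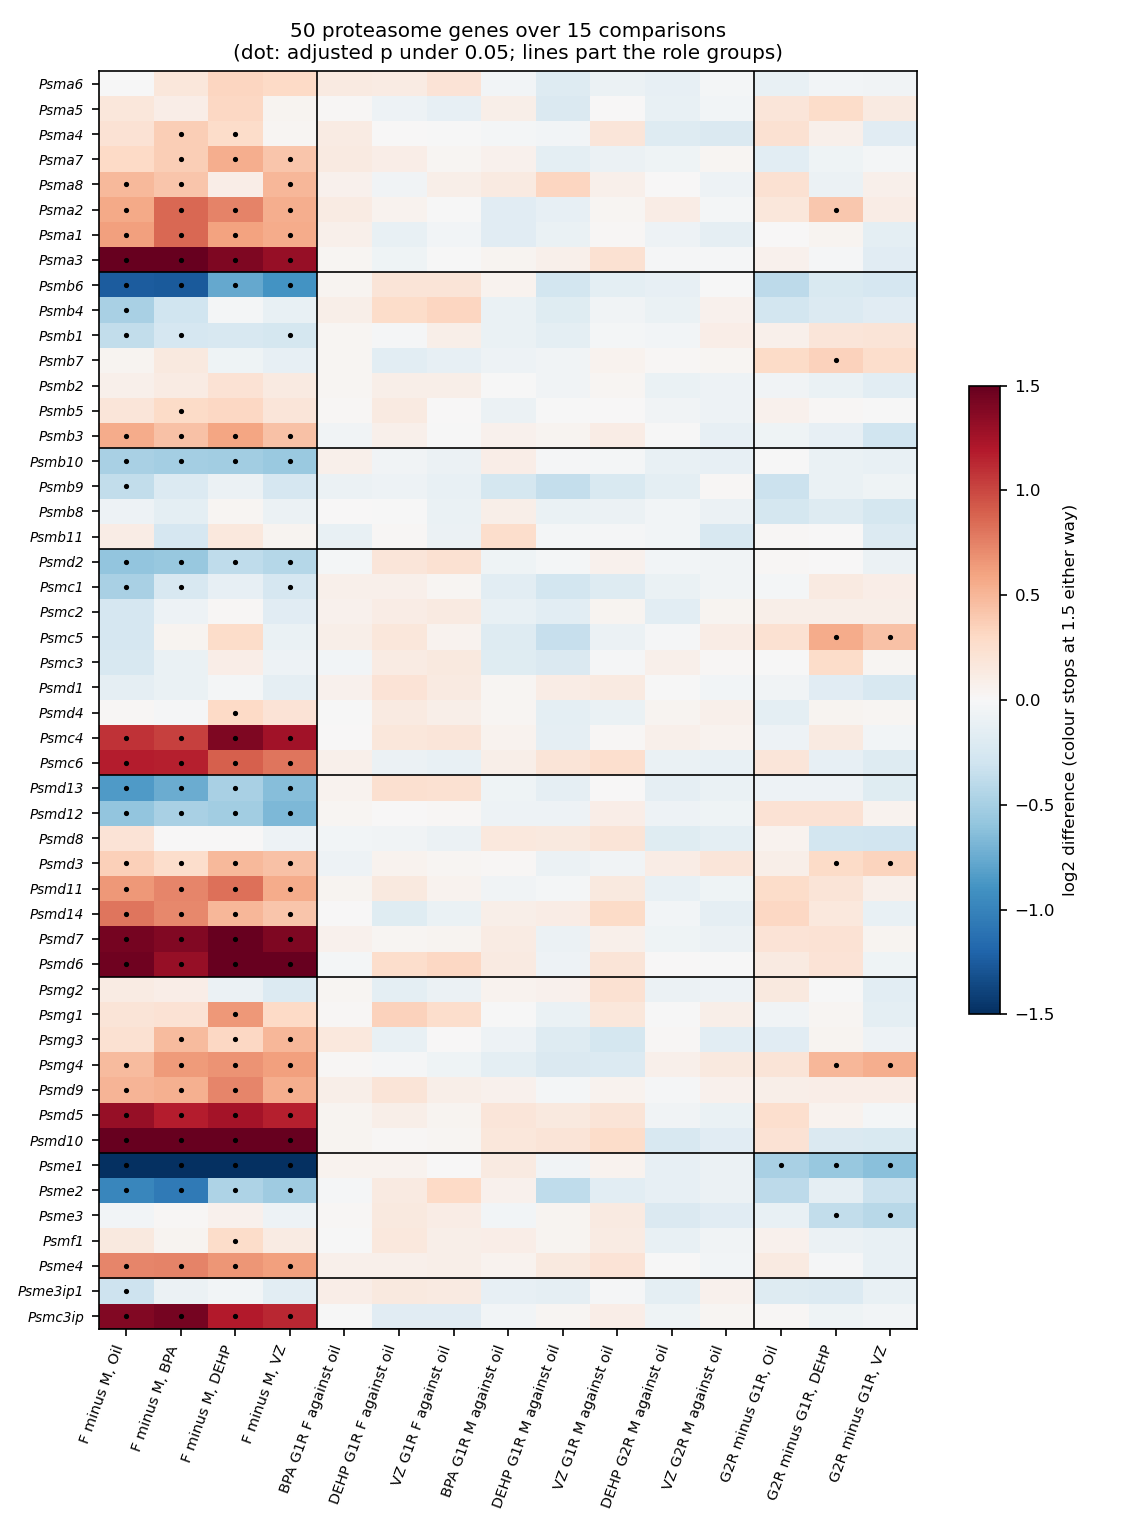
Log2 difference of the 50 genes (rows, by role) in 15 comparisons (columns), from blue (lower in the first-named group) to red (higher), with a dot where the adjusted p was under 0.05. Dots number 30, 31, 30 and 29 in the sex columns of oil, BPA, DEHP and VZ, are absent from the 8 ED columns and number 1, 7 and 5 in the generation columns of the oil, DEHP and VZ lines.

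Between generations, G2R males were set against G1R males of the same line. The array run and the direction of the cross changed with the generation, so that these cannot be told apart from it. In the oil line 1 gene was lower and none higher, beside 5.3% and 5% of all probes. In the DEHP line 5 were higher and 2 lower, beside 6.91% and 7.56%, and in the VZ line 3 were higher and 2 lower, beside 2.98% and 4.78%. The members' shares were 0% higher and 2% lower in the oil line, 10% and 4% in the DEHP line and 6% and 4% in the VZ line. They rest on counts of 0 to 5 genes and were not shown to differ from those of all probes. Psme1 was the only gene called in all 3 lines. Without the second G1R oil array the oil line gave 4 called genes.

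Psme1 measured 9.25, 9.18 and 9.14 in the oil line of G2R, 9.26, 9.03 and 8.91 in the DEHP line and 9.09, 8.91 and 9.31 in the VZ line. The 9 G2R arrays lay below all 12 G1R male arrays (9.47 to 9.86) and above all 11 female arrays (7.81 to 8.30). The differences were -0.49 ± 0.13 (adjusted p = 0.0183), -0.57 ± 0.13 (adjusted p = 0.00437) and -0.63 ± 0.13 (adjusted p = 0.00407). The call in the oil line was lost, at an adjusted p of 0.0515 to 0.0757, without the third G1R oil array or either of the second and the third G2R oil arrays. Its partner Psme2 gave -0.39, -0.13 and -0.32, none past the test. The leukocyte list mean was 6.60 to 6.79 in G2R arrays and 6.57 to 6.87 in G1R male arrays. For the endothelial list these ranges were 7.78 to 8.06 and 7.87 to 8.05, and for the class I list 7.80 to 7.91 and 7.62 to 7.93. The part of leukocytes and endothelium was not tested.

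Psme3 was lower in the G2R DEHP and VZ lines, at -0.37 ± 0.09 and -0.41 ± 0.09, and differed by -0.11 in the oil line without passing. Psmg4 measured 9.23, 9.27 and 9.23 in the G2R DEHP line against 8.98, 8.82 and 8.47 in G1R, and 9.03, 9.33 and 9.59 in the VZ line against 8.80, 8.68 and 8.84. These were differences of 0.49 and 0.54 ± 0.12 with no overlap, beside 0.19 in the oil line, not past the test. The ATPase gene Psmc5 was higher by 0.56 and 0.44 ± 0.12 in those lines (oil line 0.23, not past the test), and Psmd3 by 0.29 and 0.33 ± 0.10 (oil line 0.09). Psma2 (0.40) and Psmb7 (0.35) passed in the DEHP line, and in the oil line Psmb7 (0.28) and Psmb9 (-0.32) came nearest after Psme1. The second probes of Psma5 (0.37, DEHP line) and Psmb3 (-0.50, VZ line) passed where the first did not (0.28 and -0.30). When each pair of groups was fitted alone, Psmc5 in the DEHP line was the only member to pass. Leaving out single arrays ended the calls of Psmd3 (5 of 6 arrays in the DEHP line and 6 of 6 in the VZ line), Psmc5 in the VZ line (4 of 6), Psmb7 (3 of 6) and Psmg4 (the third G1R array in the DEHP line and the third G2R array in the VZ line).

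**Figure D4:**
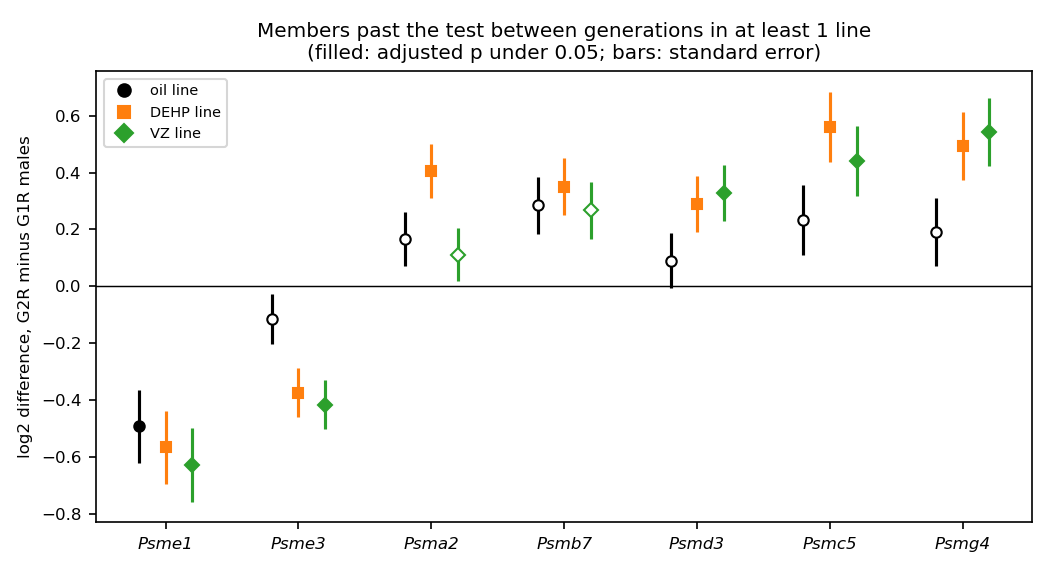
Log2 difference between G2R and G1R males (y axis) for the 7 genes that passed the test in at least 1 line (x axis), with standard error bars; filled symbols passed. Psme1 passed in the oil, DEHP and VZ lines, and the other genes only in the DEHP or VZ line.

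Whether the generations differed by unequal amounts in the ED lines and the oil line was tested as an interaction, in which no member and 0% of all probes passed in either line. Unadjusted p fell under 0.05 for 4 members with DEHP and 8 with VZ, beside 13.3% and 16.2% of all probes. Nearest were Psmd10 (-0.43 ± 0.19), Psmc6 (-0.30) and Psma8 (-0.31) in the DEHP line, and Psmc6 (-0.37 ± 0.13, adjusted p = 0.189), Psma4 (-0.40) and Psmd14 (-0.42) in the VZ line. The calls for Psme3, Psmg4, Psmc5 and Psmd3 in the ED lines were thus not shown to differ from the oil line.

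The members also shared array-to-array shifts within groups. The third array of the G2R DEHP line was the lowest of its group for 41 of 50 genes, with a mean over the 50 genes of 9.50 against 9.68 and 9.77, although its median over all probes was the highest of the group (7.48 against 7.46 and 7.40). There, Psmd10 was at 8.18 against 8.68 and 8.84, Psmd5 at 8.70 against 9.32 and 9.57, and Psmb5 at 11.69 against 12.28 and 12.32. The first BPA-treated oocyte array was lowest for 37 genes and the second oil prospermatogonia array for 4, with means of 9.85 and 9.80. The share of all probes that were lowest in these arrays was not counted. The shifts were therefore not shown to be particular to the members. Within groups the median replicate SD was 0.13 over the 50 genes and 0.15 over all probes.

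Genes that work with the proteasome but do not carry the prefix were read from a list of 11. In oil oocytes 6 were higher and 2 lower. Beside this list and those below, 28.7% of all probes were higher and 25.6% lower in oil oocytes. Usp14 (1.63 ± 0.08) and Uchl5 (1.29 ± 0.12), the deubiquitinases that dock on the cap, and Pomp (1.23 ± 0.11), the maturation factor of the core, had the smallest p. Sem1, a small lid subunit, was higher by 0.72 ± 0.13. In G2R males it was higher than in G1R males in the DEHP and VZ lines (0.78 and 0.84 ± 0.13) and not past the test in the oil line (0.30). No gene of the list passed the generation interaction for DEHP or VZ, so Sem1 was not shown to differ between the lines. Array run and cross changed with the generation here too. Among 6 regulators of proteasome genes, Ngly1, the glycanase that activates Nfe2l1, was higher by 2.69 ± 0.12, and Nfe2l2 by 0.65. Nfe2l3 (-0.87) was lower, and Nfe2l1 itself gave -0.08. Nlrc5, the class I transactivator, was lower by its brightest probe (-0.61), and its 19 probes were not compared with each other. Nfe2l2 did not pass in BPA-, DEHP- or VZ-treated germ cells (0.25, 0.09 and 0.25). Of 8 ubiquitin shuttles and segregase genes 3 were higher (Ubqln2 1.64, Ufd1 1.01, Nploc4 0.47) and 2 lower (Ubqln1 -0.82, Rad23b -0.65). Uba6, the ubiquitin-activating enzyme measured here, was higher by 0.81. Of 8 genes for heat shock and aggregate handling, 4 were lower (Hspb1 -2.14, Bag3 -1.54, Sqstm1 -1.45, Hspa1a -1.18) and none higher.

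Promoters of the members were searched on both strands for the letters of 6 motifs, over 250 bases before and 50 after the start. TGACNNNGC, the antioxidant response element core, was in 13% of the 46 member promoters and 12.4% of all 32851. It occurred in Psmb5, Psmb6, Psmc6, Psmd9, Psmd12 and Psme4, of which 3 were higher, 2 lower and 1 not called in oil oocytes. GGGCGG (GC box) was in 54.3% against 35.7%, with 12 of its 24 genes higher and 7 lower. CCAAT was in 34.8% against 37.4%. GAAANNGAA, spaced half-sites for interferon regulatory factors, was in 15.2% against 8.56%, for 7 genes that included Psme1 (-1.68) and Psmg4 (0.48). CACGTG, the E-box, was in 10.9% against 7.15%, and TTCCCGCC, an E2F site, in 4.35% against 2.19%, for Psma1 and Psmc4, both higher in oil oocytes. The letters of the GC box and the E2F site can overlap in a promoter, and these shares are descriptions without a test.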

How the data were processed

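Arrays were Affymetrix Mouse Gene 1.0 ST. The authors normalized them by RMA in Partek and deposited log2 intensities for 35556 probes, with array medians of 7.29 to 7.5. Tool versions are not given in the sources used here, and no raw intensities were used. The number of arrays limits the precision. Of the probes, 21789 name 1 gene, 1621 several and 12146 are unlisted in the platform annotation. Symbols were updated through Entrez identifiers for 21698 probes. For a gene with several probes the one with the highest mean signal was used.

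A mean per group was fitted to all 32 arrays with limma 3.58.1 in R 4.3.3 (lmFit, eBayes), with Benjamini-Hochberg adjustment over all probes and a threshold of 0.05. Tables and figures were made in Python 3.11.15 (pandas 2.3.3, matplotlib 3.10.9), and the fit was tested on simulated data. The members and lists were chosen with earlier results of these data known. Named genes were the catalytic pairs, activators, chaperones, up to 6 called members in each direction of a comparison, the smallest p of a role group, and otherwise the 3 smallest p. Where further members are named, they were chosen after their values were seen. Alternatives were no moderation, cyclic loess, array weights, a replicate block, only the groups compared, no dim probes, single-gene probes, a 1.5-fold minimum, the mean of a gene's probes, and leaving out each array.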

Additional observations from a re-analysis of the deposited data

How the results depend on the processing

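A 1.5-fold minimum left 6 genes lower in oil oocytes in place of 12. It left 14 higher and 4 lower with BPA, 2 lower with DEHP, and 10 higher and 4 lower with VZ, since it drops small differences by construction. Cyclic loess gave 14 lower genes with BPA, 11 with DEHP and 16 with VZ, and oil medians of 0.19 (alpha ring), -0.48 (cap base), 0.27 (cap lid) and 0.40 (symbols that encode no subunit); the cause was not tested. Without dim probes the median of the exchangeable subunits was -0.43, as Psmb8 and Psmb11 drop out.

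Generation calls were the least stable. The oil line gave 2 genes without dim probes, 4 with array weights, 0 with only the groups compared and 0 at 1.5-fold, and 0 to 4 with single arrays left out. The DEHP line gave 1 with only the groups compared and 0 at 1.5-fold. The VZ line gave 0 and 1, and 2 to 4 with single arrays left out. Fitting only the groups compared leaves fewer residual degrees of freedom.

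Replicate numbers did not pair the samples: deviations of same-numbered arrays correlated at -0.354 to 0.131. With the replicate block, oil gave 18 higher and 12 lower genes, and of the named genes Psmd3 in the DEHP line lost its generation call (adjusted p = 0.0512). No named gene past the test reversed its direction under the alternatives run, the beta ring median changed sign under cyclic loess (0.05 to -0.13), and no ED or interaction comparison gained a member under any alternative run.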
